A study of Saccharomyces cerevisiae with 6 samples.

Results

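The genes described here encode the nuclear subunits of the last 3 complexes of oxidative phosphorylation in budding yeast, namely complex III with cytochrome c, cytochrome c oxidase and ATP synthase. They were chosen by name from a fixed list of 34 genes, and 34 of the 6416 rows of the deposited table carried these names. The list held 11 genes for complex III and cytochrome c, 9 for cytochrome c oxidase and 14 for ATP synthase. There were 2 strains of BY4741 (Saccharomyces cerevisiae, mating type a), and both express a Cit1, the mitochondrial citrate synthase, that lacks its targeting presequence. The first strain expresses NdeltaCit1-DS/AA (3 libraries, replicates 1 to 3) and the second NdeltaCit1-DS/AA-H/G (3 libraries, replicates 4 to 6). Below, each strain goes by the name of its form without the prefix. All cultures had galactose as carbon source in a synthetic complete medium. What the letters of the 2 forms stand for, the promoter and vector behind them, and the age or number of the cultures are not stated in the labels.

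Complex III, the cytochrome bc1 complex, passes electrons from ubiquinol to cytochrome c, a small soluble heme protein, and cytochrome c oxidase passes them on to oxygen. Both pump or release protons across the inner mitochondrial membrane, and ATP synthase uses the return of these protons to make ATP. In yeast most subunits are encoded in the nucleus and imported, while a few core subunits are encoded by mitochondrial DNA, and many of the nuclear genes are known to be repressed on glucose and activated by the Hap complex on other carbon sources.

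Each library held 30277564 to 32702577 estimated reads. No pair of libraries was alike within counting error, since chi-square per gene ran from 4.20 to 19.5 for replicates of 1 strain and from 189 to 225 across strains. The CIT1 row, which does not tell the chromosomal gene from the expressed form, was lower in DS/AA, at 512058, 505016 and 549422 scaled counts against 1193540, 1206180 and 1217460 (log2 difference -1.21, limma adjusted p = 1.11e-10). The expressed form and the level of this row differ together between the strains and cannot be told apart in what follows. The receptor gene of mating type a, STE2, stood at 10929 to 17474 scaled counts over the 6 libraries and that of mating type alpha, STE3, at 375 to 525. STE6 ran from 10676 to 13881, whereas the very short pheromone genes MFA1 and MFA2 were at 0.940 to 16.3. Of the 4 a-specific genes listed 2 fell and 0 rose (median log2 difference -0.79), and of the 3 alpha-specific genes 1 rose and 0 fell (median 0.32). Of all tested genes 19.7% fell and 22.1% rose. The alpha-specific gene that rose, STE3, was not called under quantile normalization (limma adjusted p = 0.5825). Fewer cells and less RNA per cell cannot be told apart in such bulk samples.

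In DS/AA, 17 of the 34 subunit genes were called higher than in DS/AA-H/G and 0 were called lower, by small amounts of 8.84% to 28.2%. The median log2 difference of the 34 genes was 0.13, or 9.44%, and of all 6197 tested genes 0.00726. Here rose means a Benjamini-Hochberg adjusted p under 0.05 in limma over all tested genes, with DS/AA higher. At an unadjusted p under 0.05 the limma counts for the 34 genes were 22 higher and 1 lower, COX5B, where 25.5% of all genes were higher and 23.8% lower. By the adjusted rule 22.1% of all genes rose, 19.7% fell and 41.8% changed in either direction. The estimate lay above 0 for 32 of the 34 genes, against 51.4% of all genes, and below 0 for CYC1 and COX5B. For 20 of the 34 every DS/AA library lay above every DS/AA-H/G library, as for 27.8% of all tested genes, and for 0 the reverse held, against 25.0%, or 52.7% of all genes in either direction. Complex III and cytochrome c had 7 of 11 risen (median log2 difference 0.22), cytochrome c oxidase 4 of 9 (0.12) and ATP synthase 6 of 14 (0.13). The scaling of the libraries sets how such small differences are divided. Under quantile normalization 36.8% of all calls were higher and with equal column totals 71.1%, against 52.8% as deposited, and the 34 genes then had 19 risen with 2 fallen, and 25 risen with 0 fallen. Of all tested genes, 16.7% rose and 28.7% fell in the former setting, and 29.7% rose and 12.1% fell in the latter.

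**Figure D1:**
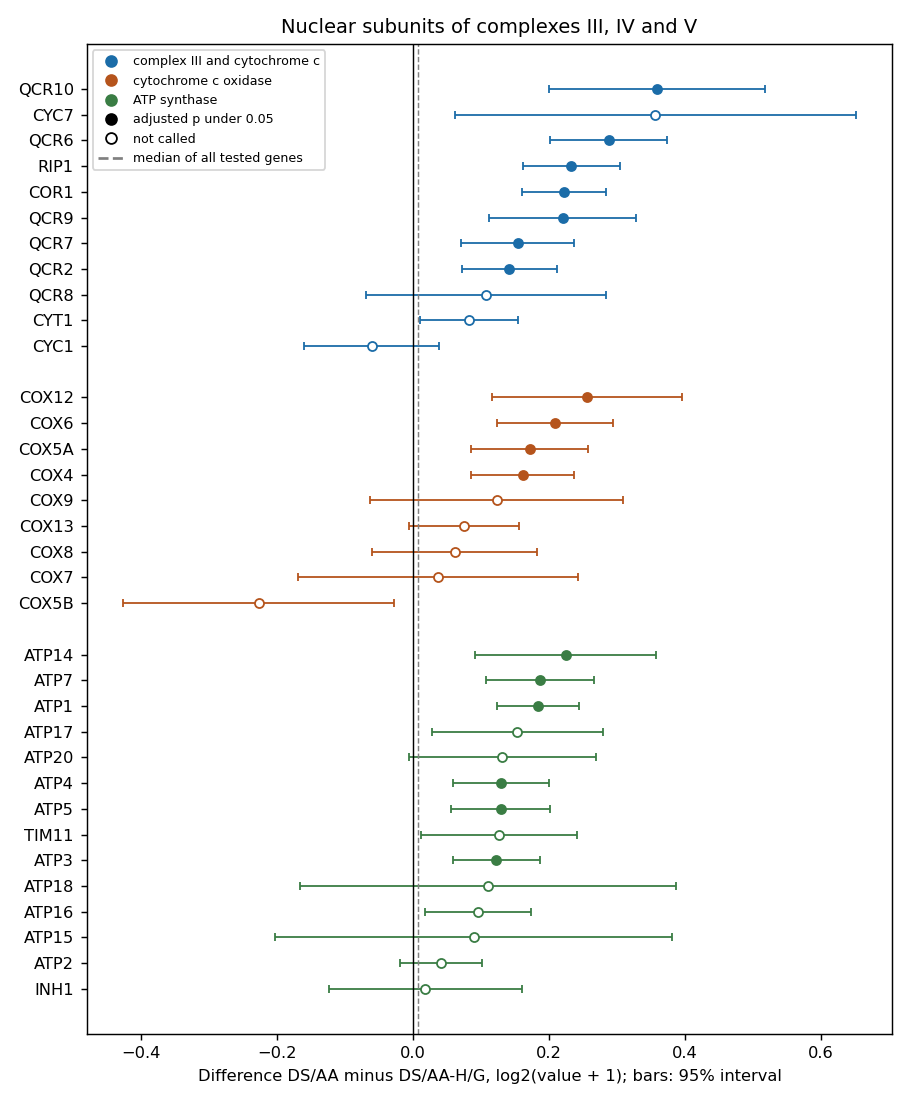
Log2 difference between DS/AA and DS/AA-H/G (x axis, log2 of the scaled count + 1) for each of the 34 genes (y axis), with 95% intervals from limma (n = 3 libraries a strain); filled points passed an adjusted p of 0.05. The 17 filled points all lie right of 0, from 0.12 for ATP3 to 0.36 for QCR10, while CYC1 and COX5B lie left of 0 and are open.

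Summed over its genes, complex III with cytochrome c stood at 108158, 109320 and 111894 scaled counts in the DS/AA libraries against 96154, 97332 and 97160 in DS/AA-H/G. The cytochrome oxidase genes summed to 25915, 27162 and 26971 against 24143, 23998 and 24395, and the ATP synthase genes to 264325, 272249 and 275049 against 249001, 252553 and 250442. In each of the 3 sums the strains did not overlap, as for 52.7% of single tested genes in either direction. These sums are dominated by the most abundant genes, among which ATP2 alone reached 102287 to 107807. In the mean log2 level each gene counts alike. For ATP synthase that mean was 12.4201 in DS/AA replicate 1 and 12.4199 in DS/AA-H/G replicate 4, so the strains were barely apart.

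Levels differed widely among the genes. Per 1000 nt of coding sequence, ATP2 was highest at 67160 ± 648 in DS/AA-H/G and CYC7 lowest at 366 ± 9.78 (SD, n = 3 each). On that scale ATP1 followed at 42021 ± 252, then QCR6 at 27158 ± 169 and ATP3 at 25641 ± 357. The core subunit genes QCR2 and COR1, at 21940 ± 199 and 21437 ± 85.3, stood close to each other. The cytochrome oxidase genes were lower, with COX13 highest among them at 14681 ± 266 and COX5B lowest at 1392 ± 134. Coding length leaves out the untranslated ends, so levels of the shortest genes on this scale are the least certain.

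Near the coding sequences of these genes a letter pattern recurred. The genes were chosen by name, but many such genes are known to be activated by the Hap complex. The patterns searched were those of the Hap complex and of other regulators of such genes. A higher share than among all genes is therefore no independent result. The window from 250 bases before to 50 after the start of the coding sequence was read from RefSeq's R64 genome for 33 of the 34 genes, all but COX5B, and for 5773 genes in all. CCAAT, the core of the sequence that the Hap complex binds, was found on either strand in 27 of the 33 windows (81.8%) against 43.9% of all windows. The longer form ACCAATNA, which contains CCAAT, was found in 13 of 33 (39.4%) against 5.85%. It was in 7 of 14 ATP synthase windows, 4 of 8 cytochrome oxidase windows and 2 of 11 complex III windows. Among genes that rose, 8 of 17 windows held ACCAATNA, and among the others 5 of 16, while CCAAT was in 14 of 17 and 13 of 16. ATTGTT, the core of the Rox1 sequence, was in 15 of 33 windows (45.5%) against 34.6%, and the Hap1 sequence (CGG, then NNNTAN, then CGG) in 1, that of QCR6, against 0.139% of all windows. A match of letters is a description of the window and not a site.

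The 13 matches to ACCAATNA began 134 to 248 bases before the coding sequence, and 11 read on the strand of the gene. Those of the 8 genes that rose are shown, since they let the match be compared across the 3 complexes. Each is written 5′ to 3′ on the strand on which it reads ACCAATNA, which is in capitals, with 10 bases on either side.
RIP1 (chrV:107002-107029, plus strand): tccataacggACCAATCAgcgttttgcg
QCR7 (chrIV:1496713-1496740, minus strand): tcttgttttgACCAATCAggagcgacgc
COX6 (chrVIII:209478-209505, minus strand): ctttgaccggACCAATTAggtccctttt
COX12 (chrXII:225361-225388, minus strand): cataacattgACCAATCAattttcagaa
ATP3 (chrII:315369-315396, plus strand): gtgatggagaACCAATGAgcggcgagta
ATP4 (chrXVI:408917-408944, minus strand): tcaatattgaACCAATCAcgacgctttt
ATP7 (chrXI:408150-408177, minus strand): taaaagatacACCAATTAccacttgctg
ATP14 (chrXII:722554-722581, minus strand): ccatacacgaACCAATTAtgcatcataa

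The whole window is given for QCR6, which had the second largest rise of the 34 genes and the single Hap1 match (chrVI:224720-225019, minus strand, RefSeq R64). Capitals mark CCAAT on either strand and the Hap1 sequence, and the coding sequence begins after base 250.
QCR6: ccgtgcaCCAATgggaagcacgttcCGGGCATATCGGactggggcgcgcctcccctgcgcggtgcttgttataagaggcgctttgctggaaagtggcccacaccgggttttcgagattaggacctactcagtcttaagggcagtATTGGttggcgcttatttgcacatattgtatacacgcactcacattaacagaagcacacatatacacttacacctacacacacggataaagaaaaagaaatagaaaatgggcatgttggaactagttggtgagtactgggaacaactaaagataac

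Of the complex III genes, 7 of 11 rose. Both genes of the core subunits, COR1 and QCR2, rose. COR1 (YBL045C, chromosome II, 134143 to 135516, R64) stood at 34073, 34064 and 34896 scaled counts in DS/AA and at 29373, 29588 and 29401 in DS/AA-H/G. The strains were well apart, and the difference of 0.22 ± 0.03 (log2, SE) had a limma adjusted p of 5.92e-05. QCR2 rose by 0.14 (adjusted p = 0.00411, limma), from 24288 ± 220 to 26795 ± 850 (SD, n = 3 each).

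Of the electron carriers, RIP1 (YEL024W, chromosome V, 107260 to 107907), which encodes the Rieske iron-sulfur protein, stood at 6923, 6876 and 6773 against 5783, 5859 and 5865. All 3 DS/AA libraries were higher, by 17.5% on average (log2 difference 0.23 ± 0.03, limma adjusted p = 0.000126). CYT1, which encodes cytochrome c1, stood at 14227, 13639 and 14100 against 12940, 13212 and 13499. Its strains did not overlap, but the difference of 5.84% did not pass (limma adjusted p = 0.0669, 95% interval 0.665% to 11.3%).

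Of the 5 small subunits without redox groups, 4 rose. QCR6 (YFR033C, chromosome VI, 224326 to 224769), which encodes the acidic hinge subunit, stood at 13897, 15426 and 14862 in DS/AA against 12032, 12143 and 11999. The DS/AA-H/G libraries lay close together and DS/AA replicate 1 was the lowest of its strain, and the rise was 0.29 ± 0.04 on the log2 scale (limma adjusted p = 0.000105). QCR10 (YHR001W-A, chromosome VIII, 107826 to 108122) had the largest difference of the 34 genes, with 794, 914 and 942 against 661, 718 and 683. That is 28.2% higher (log2 difference 0.36 ± 0.07, limma adjusted p = 0.00193). QCR9 rose by 0.22 and QCR7 by 0.15. QCR8 stood at 1815, 2023 and 2304 against 1903, 1997 and 1783, so its strains overlapped (log2 difference 0.11, limma adjusted p = 0.313).

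Cytochrome c has an aerobic and a hypoxic form in yeast, CYC1 and CYC7. CYC1 (YJR048W, chromosome X, 526335 to 526664) was nearest to 0 of the genes of its complex, at 2721, 2763 and 2795 in DS/AA and 2697, 2997 and 2952 in DS/AA-H/G. Its difference of -4.15% had a 95% interval of -10.5% to 2.69% (limma adjusted p = 0.31). CYC7 (YEL039C, chromosome V, 79636 to 79977) was the least abundant of the 34, at 186, 161 and 138 against 126, 128 and 122. Its DS/AA libraries were all higher but spread widely, and the difference of 0.36 ± 0.13 did not pass (limma adjusted p = 0.052). It did pass with a pseudocount of 10 (adjusted p = 0.0481), with equal column totals (0.0287), with equal totals once CIT1 was set aside (0.0405) and without DS/AA replicate 3 (0.0227), and over all 13 alternatives the adjusted p ran from 0.0227 to 0.831.

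**Figure D2:**
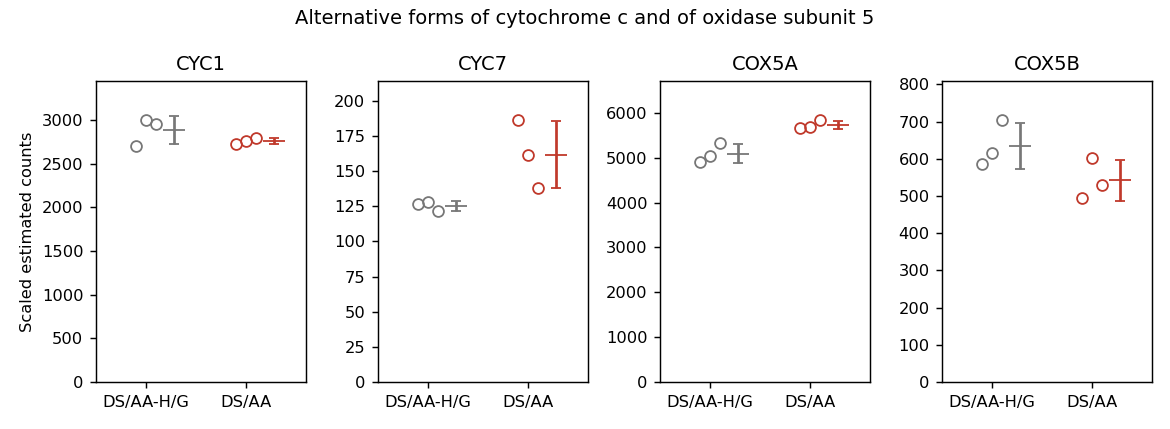
Scaled estimated counts (y axis, from 0, a different scale in each panel) of CYC1, CYC7, COX5A and COX5B in the 3 libraries of each strain (x axis), with the mean and SD beside them. DS/AA lies above DS/AA-H/G for CYC7 and COX5A without overlap, and the strains overlap for CYC1 and COX5B.

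Genes of cytochrome c oxidase divided into those that rose and those at which no difference passed. COX12 (YLR038C, chromosome XII, 224921 to 225172) encodes a small subunit on the outer face of the complex. It stood at 1500, 1709 and 1720 in DS/AA against 1450, 1393 and 1283, or 19.3% higher (log2 difference 0.26 ± 0.06, limma adjusted p = 0.00729). COX6 (YHR051W, chromosome VIII, 209705 to 210151) stood at 4638, 4998 and 4930 against 4276, 4157 and 4161, a rise of 0.21 ± 0.04 (limma adjusted p = 0.00111). In both genes DS/AA replicate 1 was the lowest of its strain and still above each DS/AA-H/G library. COX4 (YGL187C, chromosome VII, 149704 to 150171), which encodes a zinc-binding subunit, stood at 6044, 6172 and 5933 against 5333, 5384 and 5516, or 11.8% higher (limma adjusted p = 0.00296).

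Subunit Cox5 also comes in an aerobic form, COX5A, and a hypoxic form, COX5B. COX5A (YNL052W, chromosome XIV, 531725 to 532186) rose, with 5672, 5687 and 5835 against 4908, 5042 and 5329 (log2 difference 0.17 ± 0.04, limma adjusted p = 0.00426). COX5B (YIL111W, chromosome IX, 155311 to 155765 in the deposited table) stood at 495, 603 and 528 against 586, 615 and 703. One DS/AA library lay within the range of the other strain, and the difference of -14.6% did not pass (95% interval -25.6% to -1.91%, limma adjusted p = 0.0652). Without DS/AA replicate 2 it passed (log2 difference -0.31, adjusted p = 0.0215), and likewise without DS/AA-H/G replicate 4 (-0.28, adjusted p = 0.0474) and under quantile normalization (-0.41, adjusted p = 0.00258). Over the 13 alternatives the adjusted p ran from 0.00258 to 0.473.

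Within each library the ratio of COX5A to COX5B counts was 11.4, 9.41 and 11.0 in DS/AA and 8.37, 8.19 and 7.57 in DS/AA-H/G. The ratio was thus higher in every DS/AA library, by 0.40 ± 0.10 (SE) on the log2 scale. The ratio of CYC1 to CYC7 was 14.5, 17.0 and 20.1 against 21.2, 23.2 and 24.1. It was lower in every DS/AA library, with a log2 difference of -0.42 ± 0.15 (SE). An exact two-sided permutation test over the libraries gave p = 0.1 for each of these 2 ratios, raw and adjusted over both, which is the smallest p that 3 against 3 libraries allow.

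The other cytochrome oxidase genes did not pass. COX13 stood at 5809, 6161 and 6128 against 5812, 5610 and 5754 (limma adjusted p = 0.126), and COX8 and COX9 had log2 differences of 0.06 and 0.12. COX7 (YMR256C, chromosome XIII, 778945 to 779127) was nearest to 0, at 362, 374 and 395 against 416, 339 and 351. Its interval of -11.1% to 18.3% includes the size of most rises in the complex, so such a rise is not excluded there. Under quantile normalization its difference became -0.26 (adjusted p = 0.0396), whereas with limma on the values as deposited it was 0.04.

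**Figure D3:**
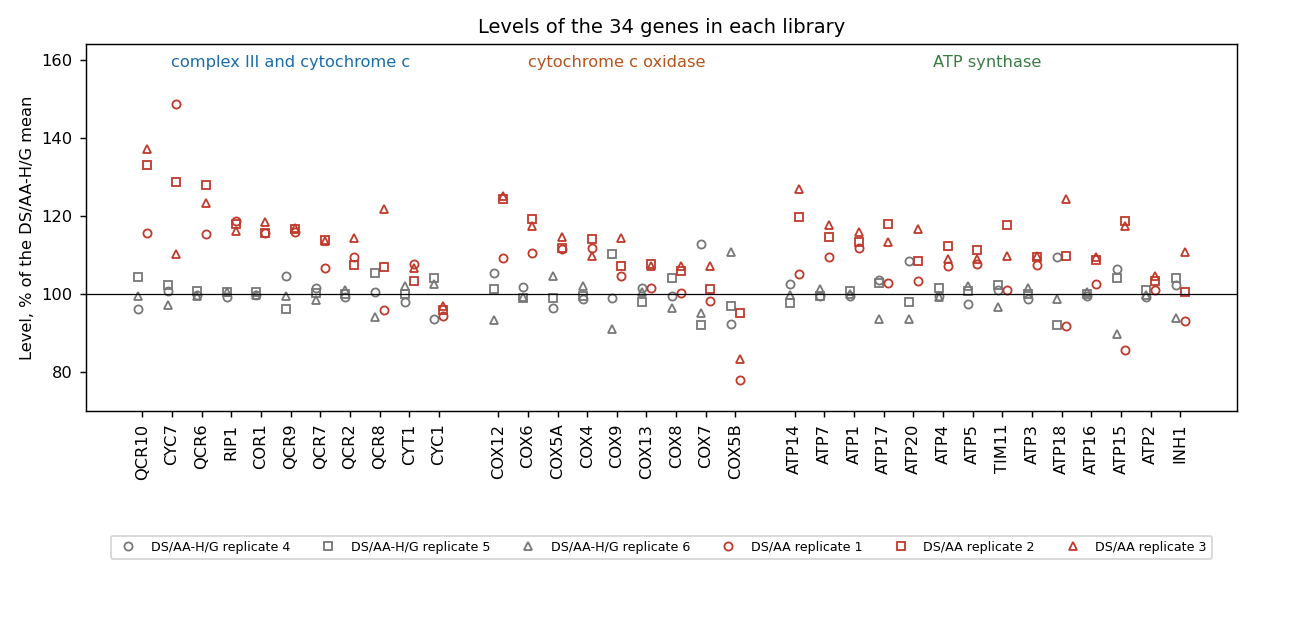
Level of each of the 34 genes (x axis, by complex and by size of the difference) in each of the 6 libraries, as percent of the gene's mean in DS/AA-H/G (y axis). For QCR10, RIP1 and COR1 the DS/AA symbols stand clear of those of DS/AA-H/G, and for the last gene of each complex (CYC1, COX5B and INH1) they mix.

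In ATP synthase 4 of 4 genes of the peripheral stalk, which holds the catalytic head still against the rotor, rose. ATP14 (YLR295C, chromosome XII, 721999 to 722373), for subunit h, stood at 2676, 3044 and 3229 in DS/AA and 2612, 2486 and 2539 in DS/AA-H/G (log2 difference 0.22 ± 0.06, limma adjusted p = 0.0114). Its value is uncertain, since 32 nt of it are shared with YLR294C, which is read from the same strand. It did not pass without a trend in limma or without DS/AA-H/G replicate 5 (adjusted p = 0.0687 and 0.0532), and its adjusted p was as low as 0.000223 over the alternatives. ATP7 (YKL016C, chromosome XI, 407465 to 407989), for subunit d, stood at 9081, 9498 and 9770 against 8248, 8241 and 8403, a rise of 13.8% (limma adjusted p = 0.00144). ATP4 (YPL078C, chromosome XVI, 408010 to 408744), for subunit b, stood at 15331, 16064 and 15614 against 14236, 14545 and 14195. That is a rise of 0.13 ± 0.03 on the log2 scale (limma adjusted p = 0.00684). ATP5, for the subunit that joins the stalk to the head, rose by 9.31%.

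Of the 5 genes of the F1 head and its central stalk 2 rose. ATP1 (YBL099W, chromosome II, 37053 to 38690), for the alpha subunit, stood at 76928, 77930 and 79740 against 68418, 69245 and 68830, or 13.6% higher (log2 difference 0.18 ± 0.03, limma adjusted p = 0.000219). It overlaps YBL100C on the opposite strand by 251 nt, a row with a mean of 0.673 scaled counts. ATP2 (YJR121W, chromosome X, 647607 to 649142), for the catalytic beta subunit, stood at 104071, 106600 and 107807 against 102287, 104243 and 102942, so that its strains overlapped. Its difference of 2.90% had an interval of -1.29% to 7.27% (limma adjusted p = 0.254), which lies below that of ATP1, 8.93% to 18.5%. The ratio of ATP1 to ATP2 counts, chosen after these values were seen, was 0.739, 0.731 and 0.740 in DS/AA and 0.669, 0.664 and 0.669 in DS/AA-H/G (log2 difference 0.14 ± 0.01, SE). It was higher in each DS/AA library (exact two-sided permutation p = 0.1, the smallest possible). The gamma subunit gene ATP3 rose by 8.84% (limma adjusted p = 0.00565). ATP16, for the delta subunit, was at 6.80% and just missed the threshold (limma adjusted p = 0.0502, and 0.00533 to 0.151 over the alternatives), although its libraries did not overlap. ATP15, for the epsilon subunit, was at 705, 975 and 967 against 875, 855 and 738 in DS/AA-H/G, with a difference of 6.35% that did not pass.

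Of the 4 genes for small membrane subunits 0 passed with limma, and 2, ATP17 and TIM11, had an unadjusted p under 0.05. The median log2 difference of these 4 genes was 0.13, against 0.16 for the peripheral stalk genes. They are shorter, at 180 to 348 nt of coding sequence against 375 to 735 nt. Their SE was larger, at 0.0523 to 0.126 against 0.0320 to 0.0606. Whether the 2 groups differ was not tested. ATP17, for subunit f, was at 11.2% (limma adjusted p = 0.0503, and 0.00719 to 0.188 over the alternatives). TIM11 and ATP20, for subunits e and g that join the enzyme into dimers, were at 9.17% and 9.51% (limma adjusted p = 0.0731 and 0.117), and ATP18 at 7.89%. INH1 (YDL181W, chromosome IV, 135179 to 135436), which encodes the inhibitor that stops ATP hydrolysis, was nearest to 0, with 1485, 1602 and 1763 against 1629, 1658 and 1496. The strains overlapped (1.25%, 95% interval -8.21% to 11.7%, limma adjusted p = 0.847).

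Short genes were measured with less precision. Of the 18 genes with a coding sequence under 400 nt 5 rose, and of the 16 longer ones 12 rose. Of all tested genes of these lengths 15.4% and 24.3% rose. The median log2 differences of the 18 short and the 16 longer genes were 0.12 and 0.15. The SE was 0.0634 at the median for the short genes and 0.0331 for the longer ones. In DS/AA replicate 1, 17 of the 18 short genes were the lowest of their strain, at a median of -0.15 from the mean of replicates 2 and 3 (log2). So were 11 of the 16 longer genes, at a median of -0.03. Among all genes with at least 100 scaled counts the same median was -0.11 in the shortest length class, -0.08 in the next, which ends at 400 nt, and 0.02 in the longest. In DS/AA-H/G, replicate 6 was the lowest for 11 of the 18 short genes. Without DS/AA replicate 1, 23 of the 34 genes rose, 10 of 14 in ATP synthase, 5 of 9 in cytochrome oxidase and 8 of 11 in complex III, and 0 fell, where 21.5% of all tested genes rose and 20.5% fell. Without both DS/AA replicate 1 and DS/AA-H/G replicate 6, a choice made after seeing the data, 20 rose and 0 fell, against 20.2% and 19.1% of all genes. The part of length and of these libraries in the calls was not tested.

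**Figure D4:**
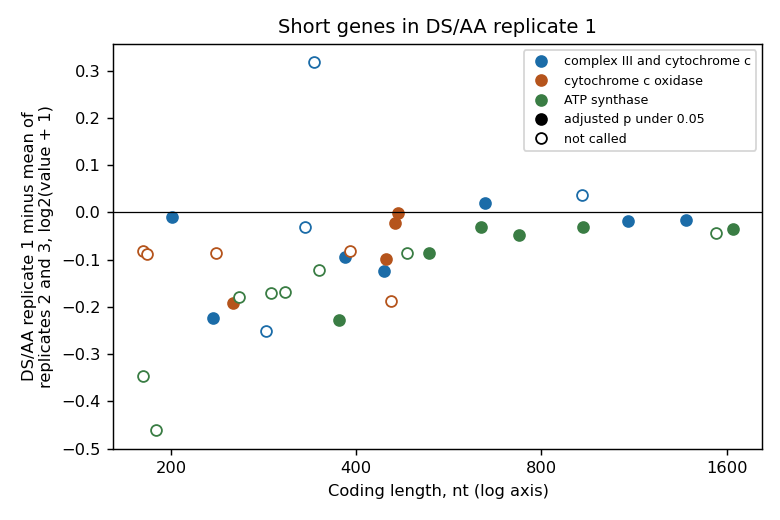
Difference of DS/AA replicate 1 from the mean of replicates 2 and 3 (y axis, log2 of the scaled count + 1) against coding length in nt (x axis, log scale) for the 34 genes; filled points rose. Points under 400 nt reach down to ATP15 and ATP18, the exception above 0 being CYC7, while the longest genes lie near 0.

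Succinate dehydrogenase is complex II of the chain. Its 4 genes all rose, by 0.13 for SDH3 to 0.44 for SDH2, which encodes the iron-sulfur subunit and went from 12542 ± 59.1 to 17012 ± 49.8 (SD, n = 3 each, limma adjusted p = 2.59e-07). SDH1 and SDH4 both rose by 0.28 (limma adjusted p = 1.95e-05 and 3.91e-05). By the same rule 22.1% of all tested genes rose and 19.7% fell. SDH3 was not called without a trend, without DS/AA replicate 3 or without DS/AA-H/G replicate 5 (adjusted p up to 0.0786), while the other 3 genes were called in all 13 alternatives. Of 6 further nuclear proteins of the complexes (median 0.02) STF1, for a second inhibitor of ATP synthase, rose by 0.48, and STF2 fell by 0.22. STF1 was called in all 13 alternatives and STF2 in 6 of them (adjusted p from 0.00162 to 0.168). The STF2 call was lost without a trend, with equal column totals and without DS/AA replicate 1 or 3 or DS/AA-H/G replicate 5 or 6. It was also lost with DS/AA replicate 1 and DS/AA-H/G replicate 6 left out together.

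Of 12 assembly factors of complex III and cytochrome c 3 rose and 1 fell (median log2 difference 0.06), where 22.1% of all genes rose and 19.7% fell. CYT2 and CYC3, the lyases that attach heme to cytochrome c1 and cytochrome c, rose by 0.20 and 0.18 (limma adjusted p = 0.00136 and 0.00886), CBP4 by 0.17, and CBP1 fell by 0.16. CYT2 was called in all 13 alternatives, CYC3 in 12, CBP4 in 10 and CBP1 in 6. CBP1 lost its call without a trend and with equal column totals, also once CIT1 was set aside. The CBP1 call was lost too when DS/AA replicate 2 or 3 or DS/AA-H/G replicate 4 or 5 was left out (limma adjusted p up to 0.148). CBP4 lost its call under quantile normalization and without DS/AA replicate 2 or DS/AA-H/G replicate 5. Of 32 assembly and expression factors of cytochrome oxidase 2 rose and 1 fell (median -0.00338), shares below the 22.1% and 19.7% of all genes. They were COX23 at 0.22, COX20 at 0.15 and OXA1, the insertase for mitochondrially made subunits, at -0.14. COX23 was called in 11 of 13 alternatives, OXA1 in 8 and COX20 in 7. Under quantile normalization 0 of the 32 rose and 9 fell, where 16.7% of all genes rose and 28.7% fell. With equal column totals 5 rose and 0 fell, against 29.7% and 12.1%, and without DS/AA replicate 1, 7 rose and 1 fell, against 21.5% and 20.5%. Without DS/AA replicate 2, 0 rose and 2 fell, against 19.2% and 17.2%. Of 12 ATP synthase factors 3 rose and 0 fell (median 0.03), against 22.1% and 19.7% of all genes as deposited. The 3 were NCA3 at 0.99 (limma adjusted p = 2.43e-06), ATP22 at 0.25 and NCA2 at 0.24. Whether these groups differ from the subunits was not tested.

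Of 8 heme synthesis genes HEM14 rose by 0.16 and HEM15, for ferrochelatase, fell by 0.33 (median -0.00994). Of 11 ubiquinone synthesis genes COQ11 rose by 0.21, and COQ1 and CAT5 fell by 0.13 and 0.21 (median -0.04). By the same rule 22.1% of all tested genes rose and 19.7% fell. HEM15 was called in all 13 alternatives, COQ11 in 12, HEM14 in 10, and COQ1 and CAT5 in 8 each. CAT5 lost its call without a trend, with equal column totals, and without DS/AA replicate 1, DS/AA-H/G replicate 6 or both. COQ1 lost its call with equal column totals, also once CIT1 was set aside, and without DS/AA replicate 2 or DS/AA-H/G replicate 4 or 5. HEM14 lost its call under quantile normalization and without DS/AA replicate 2 or DS/AA-H/G replicate 5. The carriers that bring ADP and phosphate to ATP synthase rose, PET9 (the main ADP/ATP carrier) from 46761 ± 1273 to 64663 ± 2437, or by 0.47 (limma adjusted p = 6.98e-07), AAC1 by 0.60 and the phosphate carrier MIR1 by 0.16. The hypoxic carrier gene AAC3 went the other way, from 194 ± 15.7 to 92.9 ± 5.88 (log2 difference -1.05, limma adjusted p = 3.44e-05), so the 4 carriers had 3 risen and 1 fallen (median 0.31).

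Of 8 transcription regulators of respiratory genes 5 rose and 0 fell (median 0.31), against 22.1% and 19.7% of all tested genes. HAP4, which activates the Hap complex, stood at 30101, 34408 and 35357 against 12213, 14156 and 15527, a log2 difference of 1.26 ± 0.10 (limma adjusted p = 7.05e-05). That is far larger than for any of the 34 subunit genes. ROX1, the repressor of hypoxic genes, rose by 1.17 ± 0.04 (limma adjusted p = 4.70e-10) and HAP1, the heme-dependent activator, which carries a transposon insertion in strains of this background, by 0.55 (limma adjusted p = 3.31e-07). HAP5 rose by 0.29 and MOT3 by 0.32, and HAP2, HAP3 and MIG1 did not pass. Of 6 genes of hypoxic growth 3 fell and 2 rose (median -0.16), against 19.7% and 22.1% of all tested genes. ANB1, AAC3 and HMG2 fell by 1.27, 1.05 and 0.31, the cell wall genes DAN1 and TIR1 rose by 6.33 and 1.91, and HEM13 was at -0.0065. COX5B and CYC7, the hypoxic forms among the 34 genes, thus stood on opposite sides of 0, and neither passed.

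**Figure D5:**
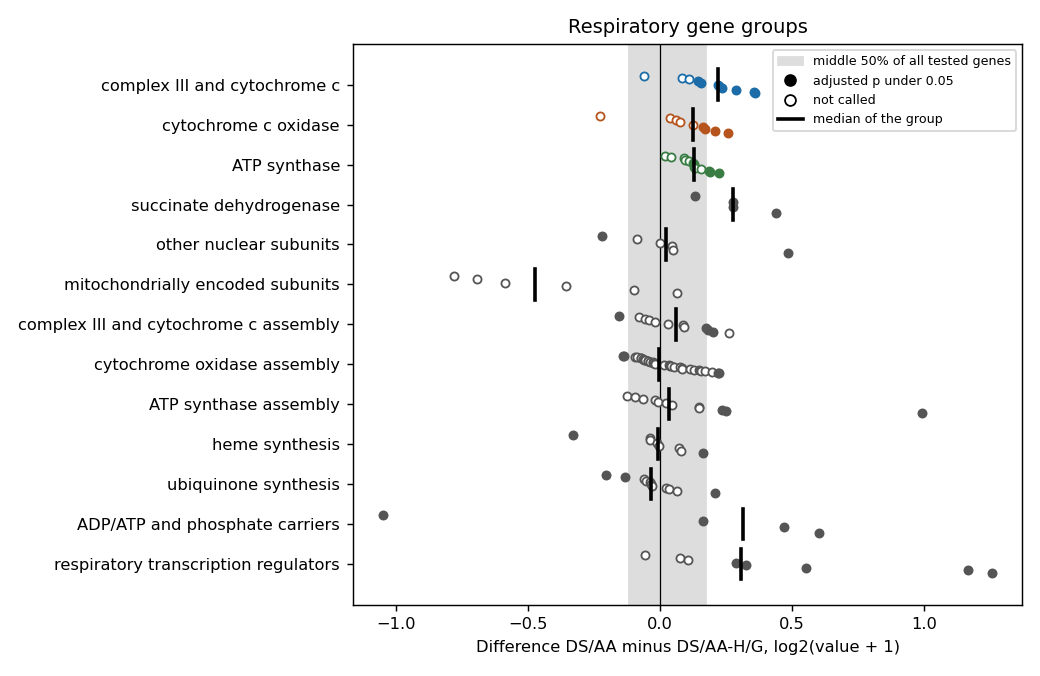
Log2 difference between the strains (x axis) for each gene of the respiratory gene groups (y axis); filled points passed an adjusted p of 0.05, black bars are group medians and the grey band holds the middle 50% of all 6197 tested genes (-0.12 to 0.17). Medians of complex III with cytochrome c (0.22) and of succinate dehydrogenase (0.28) lie right of the band. So do those of the ADP/ATP and phosphate carriers (0.31) and of the transcription regulators (0.31). Those of the assembly groups lie near 0, and that of the mitochondrially encoded subunits (-0.47) lies left of the band.

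The subunits encoded by mitochondrial DNA could not be compared with their nuclear partners. Of 7 listed, 6 were analysed here, and COX1 was the highest at 145 to 240 scaled counts, while COB, COX2, COX3, ATP6 and OLI1 ran from 0 to 35.6. With limma 0 rose and 0 fell at an adjusted p under 0.05 (median log2 difference -0.47), COX1 and OLI1 were lower at an unadjusted p under 0.05 and passed the adjusted one in 3 and 2 of 13 alternatives, and the intervals were wide, as for COX3 with an SE of 0.86.

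In the authors' deposited table, 19 of the 34 genes had a q-value under 0.05 and all 19 had a higher mean in DS/AA. Of all rows 41.5% had such a q-value, counted in either direction. The 19 were the 17 genes that rose here and 2 more, CYC7 (q = 0.0161) and ATP17 (q = 0.0313).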

How the data were processed

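RNA was measured in 6 libraries of BY4741. Per the labels' protocols, libraries were made with a strand-marking kit. The tools named, per the submitters' processing notes, were Salmon 1.2.1, cutadapt 1.18, bcl2fastq 2 and R 3.5.1, on build R64; settings, strand included, were not given in the sources used here. In the deposited table each library has a signal, which appears to be estimated counts put on 1 common scale by a factor for that library. The low values show this, being whole multiples of 1 step (93.3% to 96.4% of values under 10 steps within 0.01), while 36.5% to 44.0% of all values above 0 are whole multiples, so no count model was used. The authors also deposited a log2 ratio, a p-value and a q-value per row, a rank and a mark (scores), from a test not given in the sources used here.

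Rows of at least 1 in at least 3 of 6 libraries (6197, with all 34 genes) were moved to log2(value + 1). They were fitted by limma 3.58.1 (R 4.3.3) with trended, robust moderation. The fit was tested on simulated data with a fixed spread for all genes and no effect of library or length. That test does not bear on such effects here. The log2(value + 1) scale understates changes of low genes. Single ratios used exact permutation tests (scipy 1.17.1). The labels do not say whether the libraries of a strain are separate cultures, and p-values therefore reflect only the spread of these samples, which may be technical. Coding lengths and start windows were read from the RefSeq R64 annotation and genome, not from a promoter table. Start and end matched in 5802 of the 5811 rows found there. BLAST+ 2.17.0 found 0 of the 34 genes sharing 100 nt at 95% identity with another locus. The genes and lists were chosen with earlier results of these data known. Values in every library are given for the 4 isoform genes, the 4 largest calls and the gene nearest to 0 in each complex. Up to 3 called genes with the smallest p were named from each other list, or all where 5 or fewer were called. Other genes with such values or names were chosen after their values were seen. Alternatives were the trend, 3 other scalings, the pseudocount, the filter and each library left out, and, added after seeing the data, DS/AA replicate 1 and DS/AA-H/G replicate 6 left out together.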

Additional observations from a re-analysis of the deposited data

How the results depend on the processing

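Of the 17 genes that rose, 16 did so in each of the 13 alternatives, ATP14 being the exception, and 26 of the 34 estimates were never below 0. Among these 26, ATP2 was at 0 within rounding under quantile normalization (2.189e-15), a result counted below as having kept its direction. Over 442 gene results, 400 kept their direction and side of the threshold, 2 lost the call, 31 gained one and 9 changed sign, of genes not called as deposited. Under quantile normalization these were COX7 (-0.26, called), ATP18 (-0.17), COX9 (-0.0949), COX8 (-0.0565), ATP15 (-0.0495) and INH1 (-0.0423). With a library left out INH1 ran from -0.0464 to 0.0774 and COX7 from -0.0202 to 0.126. ATP synthase had 11 genes risen with equal column totals, where 29.7% of all tested genes rose. With single libraries left out it had 5 to 10 risen, 10 without DS/AA replicate 1, where 18.0% to 21.5% of all tested genes rose. Cytochrome oxidase and the 34 genes as a whole had 2 fallen under quantile normalization (COX5B and COX7), and 0 to 1 with a library left out. Of all tested genes 28.7% fell under quantile normalization and 14.7% to 20.5% with a library left out. With equal column totals 747 of all genes were called lower, and under quantile normalization the median of all genes was -0.0575. The cause of these shifts was not tested, and only these scalings were tried. Leaving out a library moved the COX5A to COX5B difference between 0.343 and 0.483 and that of CYC1 to CYC7 between -0.535 and -0.302. No paired analysis was possible because the strains share no replicate number. Depth was alike in all libraries. At the median the SE was larger for the genes under 400 nt. COX5B, with 456 nt, also had a large SE (0.0911), and COX13, with 390 nt, a small one (0.0369). Length and level were not told apart.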
